A study of Mus musculus with 2 samples.

Results

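The interferon-responding tumor cells of orthotopic KPC pancreatic tumors were described in single-cell RNA sequencing data. They were the tumor cells in which Gbp2, Gbp5 and Cxcl10 took the largest share of the UMIs, the molecule tags that count single RNA molecules. A barcode was taken as a tumor cell if it had no fewer than 3000 UMIs, a gene number between 200 and 5000, up to 8% mitochondrial UMIs and at least 2 UMIs of the keratin genes Krt8 and Krt18. It held no UMI of Ptprc (leukocytes) or Pecam1 (endothelium), at most 1 of the fibroblast genes Dcn and Lum together, and under 0.2% of the macrophage genes Lyz2, C1qa, C1qb and C1qc. Each tumor cell was scored by its Gbp2, Gbp5 and Cxcl10 UMIs per 10000, and the top 10% over both libraries were the members. They numbered 325 of 3249 tumor cells, among 11249 barcodes past the limits in the whole series.

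KPC cells, a mouse pancreatic cancer line from a Pdx1-cre model with mutant P53, had been injected into the pancreas of mice given tamoxifen or corn oil beforehand. Which of them the hosts of each library received is not given in the sources used here. One library, labelled FLOX, came from hosts with floxed MCT1 alleles (MCT1 fl/fl), and the other, labelled MCT1-KO, from hosts in which Col1a2-CreERT2 deleted MCT1 (PSCs-MCT1-/-). The Cre driver is active in collagen-producing fibroblasts and stellate cells, so the implanted tumor cells themselves carried no deletion by design, and the sources used here do not give the number of animals behind each library. There was 1 library per condition, so no difference between them could be tested, and every interval in brackets is an exact 95% interval of counting error only.

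The FLOX library held 177334432 UMIs over 1437105 barcodes and the MCT1-KO library 151118092 over 1433633. Past the limits were 4963 and 6286 barcodes, of which 20 sequences occurred in both libraries, but no member barcode was shared. CPM below is a gene's part of all UMIs of a set of cells in 1 library, on the usual CPM scale. Slc16a1, the gene of the lactate transporter MCT1, was not lower in fibroblast cells (Dcn and Lum at least 5 UMIs, no Ptprc, at most 1 keratin UMI) of the library labelled MCT1-KO, at 34.2 CPM (25.9 to 44.2) against 26.6 (17.9 to 38.0), so its genotype label could not be checked by this gene. The paper reports lower MCT1 in stellate cells of its knockout mice, in its single-cell data, by Western blot and PCR, and by immunofluorescence of pancreas sections. It also reports a DNA gel of mouse tails for the genotype. Members held 37.3 CPM (29.9 to 45.9) in FLOX and 50.4 (42.4 to 59.6) in MCT1-KO, 1.35 times as much (1.03 to 1.79). The direction was the same outside the members. Other tumor cells held 32.8 and 45.1 CPM, macrophages 4.89 and 6.82 and T cells 20.7 and 26.5, FLOX first.

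Interferons are secreted proteins that bind cell-surface receptors and, through JAK kinases, activate STAT transcription factors. Interferon-gamma comes from T and NK cells, and the factors it activates bind gamma-activated sites (GAS) and induce Irf1. Type I interferons act through a complex that includes STAT2 and IRF9 at interferon-stimulated response elements (ISRE). The targets include guanylate-binding proteins and immunity-related GTPases, which attack intracellular pathogens, antigen-presentation genes, antiviral proteins and the chemokines Cxcl9 and Cxcl10, which draw T cells carrying the receptor CXCR3. Cxcl10 is also a target of NF-kB, the factor of inflammatory signalling. SOCS1 and USP18 limit the response.

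The 250 bases upstream of the RefSeq start of 6 genes are printed for the reader to see where these response elements lie in the rule's own genes and in genes of the pathway. The sequences are from RefSeq on GRCm38.p6, read 5′ to 3′ on the gene's strand. Capitals mark matches on either strand to an ISRE (a GAAA block, any 2 bases and another GAAA block), a GAS (TTC, any 3 bases and GAA) or a kappaB site, the NF-kB element (GGGA, any 2 bases and TTCC). The first 3 genes made the score. Rsad2 is an antiviral gene with an interferon element, Irf1 carries a GAS, and Nfkbia is an NF-kB target.
Cxcl10, chr5:92348890-92349139, minus strand: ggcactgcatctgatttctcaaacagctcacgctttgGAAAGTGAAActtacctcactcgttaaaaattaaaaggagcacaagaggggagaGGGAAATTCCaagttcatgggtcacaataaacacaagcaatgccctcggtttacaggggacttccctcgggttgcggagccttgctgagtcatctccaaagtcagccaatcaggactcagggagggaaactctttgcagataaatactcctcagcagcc
Gbp2, chr3:142620413-142620662, plus strand: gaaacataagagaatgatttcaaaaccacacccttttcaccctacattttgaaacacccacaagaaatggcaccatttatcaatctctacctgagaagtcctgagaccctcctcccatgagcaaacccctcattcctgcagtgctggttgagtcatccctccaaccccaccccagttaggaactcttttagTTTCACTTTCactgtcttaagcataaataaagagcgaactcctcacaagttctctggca
Gbp5, chr3:142496684-142496933, plus strand: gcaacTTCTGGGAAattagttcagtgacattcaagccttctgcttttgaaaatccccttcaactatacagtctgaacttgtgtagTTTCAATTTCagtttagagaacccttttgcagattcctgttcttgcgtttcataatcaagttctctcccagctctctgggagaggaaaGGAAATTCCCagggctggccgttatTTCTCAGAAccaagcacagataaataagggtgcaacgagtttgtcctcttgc
Rsad2, chr12:26456453-26456702, minus strand: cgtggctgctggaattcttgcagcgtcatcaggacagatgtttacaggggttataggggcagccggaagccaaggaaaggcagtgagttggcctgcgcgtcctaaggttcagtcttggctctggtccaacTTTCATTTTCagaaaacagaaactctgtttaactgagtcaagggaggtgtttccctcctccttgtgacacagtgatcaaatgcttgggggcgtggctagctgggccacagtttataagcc
Irf1, chr11:53769764-53770013, plus strand: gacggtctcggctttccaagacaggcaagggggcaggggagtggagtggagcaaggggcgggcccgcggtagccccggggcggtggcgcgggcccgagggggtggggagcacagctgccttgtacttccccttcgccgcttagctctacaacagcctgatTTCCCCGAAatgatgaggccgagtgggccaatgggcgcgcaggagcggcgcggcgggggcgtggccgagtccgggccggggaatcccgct
Nfkbia, chr12:55492648-55492897, minus strand: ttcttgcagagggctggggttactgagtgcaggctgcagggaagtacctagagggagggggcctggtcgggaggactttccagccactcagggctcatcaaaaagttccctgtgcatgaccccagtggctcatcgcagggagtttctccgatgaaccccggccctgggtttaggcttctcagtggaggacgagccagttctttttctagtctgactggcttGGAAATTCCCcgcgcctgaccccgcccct

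The Cxcl10 window held an ISRE match beginning 213 bases before the start and a kappaB match 159 bases before it. The Gbp2 window held an ISRE match alone, at 59 bases. Gbp5 had matches to all 3 motifs, the ISRE at 165 bases, the kappaB site at 77 and GAS matches at 245 and 52. Rsad2 carried an ISRE match at 120 bases, Irf1 a GAS match at 90 and Nfkbia a kappaB match at 29. Irf1 has another RefSeq start whose window held no match. A match says only that these letters are present. The gene spans given further below are from GENCODE and differ from the RefSeq starts for Gbp2 and Gbp5. The Gbp5 window lies inside its GENCODE span, and the end of the Gbp2 window overlaps its span. No overlapping matches of different motifs occurred in these windows.

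The score fell off without a gap at the threshold. A score from few UMIs of 3 genes cannot tell the upper end of a range from a separate type, and which of them the members are was not tested. Members had a median score of 18.7 UMIs per 10000 in FLOX (lowest 9.78, highest 150.4) and 19.2 in MCT1-KO (lowest 9.89, highest 125). The other tumor cells had medians of 1.65 and 0.623, and 195 (22.3%) and 792 (38.6%) of them had no UMI of the 3 genes. The cells just inside the threshold scored 9.78, 9.79 and 9.89, and those just outside 9.777, 9.74 and 9.73. Within 20% of the threshold lay 26 and 25 members above it and 35 and 53 other cells below it, FLOX first. The median member carried 29 and 30 UMIs of the 3 genes, and the smallest carried 4.

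**Figure D1:**
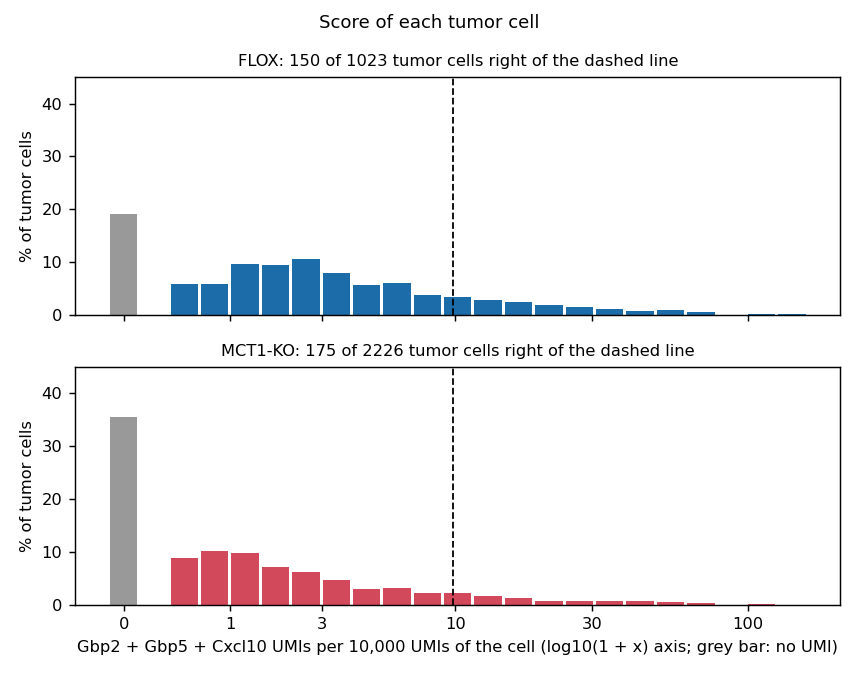
The share of tumor cells in each library (vertical axis, percent) by score (horizontal axis, Gbp2, Gbp5 and Cxcl10 UMIs per 10000, on a log scale after adding 1), with a grey bar for cells without a UMI of the 3 genes. The distribution runs through the threshold at 9.78 with no gap, and the tail above it holds 150 FLOX and 175 MCT1-KO cells.

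Members made up 14.7% of FLOX tumor cells (150 of 1023, 12.6 to 17.0%) and 7.86% of MCT1-KO tumor cells (175 of 2226, 6.78 to 9.06%). Free RNA, measured in barcodes with 10 to 100 UMIs, also had a higher score in FLOX, at 6.43 against 4.27 UMIs per 10000, and its part in the share was not tested. Members were about as deep as other tumor cells, with median totals of 17596 and 16759 UMIs against 15643 and 16007, and median mitochondrial shares of 3.35% and 3.58% against 3.15% and 3.59%.

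The label was checked on markers that the rule did not score. Interferon-induced genes other than the 3 were higher in members of both libraries, as given below. The keratin genes are no check, since the choice of tumor cells required them, and that choice also limited leukocytes, macrophages, endothelium and fibroblasts in members and other tumor cells alike. The choice used no acinar, islet or antibody gene. Host cells that hold such RNA may therefore be among the members or the other tumor cells. The 10 macrophage markers (Cd68, Csf1r, Apoe and others) summed to 599 CPM in FLOX members against 669 in other tumor cells, and to 294 against 337 in MCT1-KO, where macrophage reference cells held 46336 and 53981. None of the 10 was 1.5-fold higher in both libraries. The 10 T and NK markers summed to 12.1 against 15.6 CPM and 6.90 against 7.67. The 5 fibroblast markers had median ratios of 0.783 in both libraries. The 5 neutrophil markers summed to 85.0 against 128 CPM in FLOX (0.666, 0.572 to 0.771) and to 100.2 against 63.5 in MCT1-KO (1.58, 1.38 to 1.79), where 1 cell held 200 of the 276 UMIs. Without it the MCT1-KO ratio was 0.437 (0.343 to 0.5497). The endothelial markers had summed ratios of 1.40 (0.882 to 2.17) and 1.13 (0.683 to 1.77). No gene of the cell type marker lists with enough UMIs was 1.5-fold higher in both libraries. For some lists few genes had enough: 1 of 10 T and NK, 0 of 5 dendritic, 1 of 5 B, 1 of 4 endothelial and 0 of 5 islet markers. For those lists this count is a weak check. The lists also leave out the antibody gene Ighg2b, of which 1 MCT1-KO member held 5870 UMIs.

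Members were then compared with the other tumor cells by summing UMIs within each library. Because the members were chosen by expression in the same cells, these ratios describe them and carry no test. A gene counted as higher or lower where it was at least 1.5-fold so in both libraries. Among 10269 genes with at least 50 UMIs in the tumor cells of each library, 169 (1.65%) were higher and 138 (1.34%) lower. The median ratio over all genes was 0.971 in FLOX and 0.949 in MCT1-KO. Leaving out, gene by gene, the member with the most UMIs kept 131 of the 169, and leaving out the other tumor cell with the most kept 115 of the 138. Of the 169, 71 belonged to the lists of known pathways and 98 did not. The 3 genes of the rule were among the highest by construction. Gbp2 (ENSMUSG00000028270, chromosome 3, 142620602 to 142638008 on GRCm38) held 723 against 120 CPM in FLOX and 811 against 74.8 in MCT1-KO. Gbp5 (ENSMUSG00000105504, chromosome 3, 142493978 to 142522344) held 169 against 13.4 and 125 against 7.71. Cxcl10 (ENSMUSG00000034855, chromosome 5, 92346638 to 92348889) held 1864 against 100.2 and 1914 against 65.1.

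The response was read first at its source. The ligands were near 0 in the members: Ifng, the gene of interferon-gamma, had 2 UMIs in FLOX members and 0 of 2755535 in MCT1-KO members, where 3 UMIs is the limit that a count of 0 allows. T cell reference cells (at least 2 Cd3 UMIs, no keratin UMI) held 517 CPM in FLOX and 124 in MCT1-KO. Ifnb1, a type I interferon, had 6 UMIs in FLOX members, all in 1 cell, and none in MCT1-KO members. No gene of the 8 interferon ligands had enough UMIs to be compared.

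The 4 receptor genes were close to their level in other tumor cells, and none was 1.5-fold higher. Ifngr1, the ligand-binding chain of the interferon-gamma receptor, stood at 87.9 against 72.7 CPM in FLOX, a ratio of 1.21 (1.04 to 1.41), and at 64.2 against 72.3 in MCT1-KO, 0.888 (0.758 to 1.04). The ratios of Ifngr2, the signalling chain, were 1.11 and 1.09. Ifnar1 and Ifnar2, the chains of the type I receptor, had 1.03 and 1.16, and 1.24 and 1.35.

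Of the 12 kinase and factor genes that carry the signal, 6 were higher in both libraries and none was lower. The kinases Jak1 (ratios of 1.09 and 1.04), Jak2 (1.38 and 1.22) and Tyk2 (1.70 and 1.26) did not pass. Irf1, the early interferon-gamma factor, held 1097 against 397 (2.76-fold, 2.63 to 2.90) and 757 against 199.7 (3.79-fold, 3.60 to 3.98). Stat2 and Irf9, parts of the type I complex, were 2.27-fold and 1.81-fold higher in FLOX and 3.49-fold and 2.11-fold in MCT1-KO. Batf2, a factor induced by interferon-gamma, had the highest ratios of the list, at 6.33 and 9.39. Stat3, a factor of interleukin 6 signalling, had 1.11 and 1.16, and Irf8, a factor of myeloid cells, had the lowest ratios, 0.484 (0.202 to 0.997) and 0.703 (0.222 to 1.71), on 8 and 5 member UMIs.

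All 4 guanylate-binding protein genes outside the rule with enough UMIs, Gbp3, Gbp6, Gbp7 and Gbp8, were higher, with medians of 3.30 and 5.01, and Gbp2 and Gbp5 were high by construction. Gbp6 held 139 against 18.0 CPM in FLOX (7.74-fold, 6.52 to 9.22) and 133.5 against 11.1 in MCT1-KO (12.1-fold, 10.4 to 14.0). Gbp3 held 226 against 64.2 and 212 against 38.7. Genes of this family resemble each other in sequence, so reads of one may have been counted for another. All 4 immunity-related GTPase genes were higher, with medians of 4.18 and 5.86. Iigp1 held 761 against 183 CPM (4.15-fold) and 819 against 137 (5.98-fold), and Irgm1, a regulator of the family, 107 against 25.4 (4.21-fold) and 129.9 against 17.2 (7.56-fold). The related genes Gm4841 and Gm4951, also predicted GTPases, were among the highest outside the lists, at 5.96-fold and 4.60-fold in FLOX and 11.4-fold and 4.84-fold in MCT1-KO.

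Antiviral genes were higher in 22 of 26 measured, with medians of 2.25 and 2.81. Isg15, a ubiquitin-like modifier, held 275 against 50.5 CPM (5.45-fold) and 172 against 33.4 (5.16-fold). The RNA-binding proteins Ifit1 and Ifit3 were 6.09-fold and 5.01-fold higher in FLOX and 6.90-fold and 8.87-fold in MCT1-KO. Oasl1, an OAS-like protein, was 5.83-fold and 4.73-fold higher, and Ifit3b, a near copy of Ifit3, 5.97-fold and 17.0-fold. Both rested on few cells, with Oasl1 found in 19 of 150 and 28 of 175 members and Ifit3b in 14 and 21. Without the highest member cell the ratios were 4.24 and 3.46 for Oasl1 and 4.48 and 12.5 for Ifit3b. Rsad2, which makes an antiviral nucleotide, likewise had a large ratio that rested on few cells. It held 56.1 against 3.14 CPM in FLOX (17.9-fold, 12.4 to 26.2) and 19.2 against 1.502 in MCT1-KO (12.8-fold, 8.46 to 19.4), but 1 cell carried 71 of the 134 UMIs in FLOX and 1 cell 20 of 53 in MCT1-KO. Without those cells the ratios were 8.43 and 8.04. Only 16 of 150 and 21 of 175 members held any Rsad2 UMI, whereas Irf1 was detected in 139 and 152. Ly6e, a surface protein also made without interferon, had 1.09 and 1.11.

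Of 5 T cell chemokine genes 3 were higher, of which Cxcl10 belongs to the rule. Cx3cl1 (1.45 and 1.31) and Cxcl16 (1.42 and 1.48) did not pass. Cxcl9 (ENSMUSG00000029417, chromosome 5, 92321347 to 92328079), which lies next to Cxcl10 and was not part of the rule, held 918 CPM in FLOX members against 121 in other tumor cells (7.58-fold, 7.09 to 8.09). In MCT1-KO it held 832 against 39.3 (21.2-fold, 19.7 to 22.7). A Cxcl9 UMI was found in 70.0% and 64.0% of members against 40.1% and 18.6% of other tumor cells. With each cell thinned to 3000 UMIs, these shares were 53.3% and 45.7% against 17.2% and 6.87%. T cells, which should lack Cxcl9, held it in 18.6% and 1.06% of cells, or 12.4% and 0% thinned, at median depths of 4345 and 4090 UMIs. The members' shares were above this background in both libraries. Ccl5, another T cell chemokine, had ratios of 3.49 in FLOX and 1.78 in MCT1-KO, but without its highest member cell, with 63 of 196 and 15 of 69 UMIs, they were 2.39 and 1.40, under the threshold in MCT1-KO. Free RNA held 216 and 138 CPM of it against 82.1 and 25.04 in members.

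**Figure D2:**
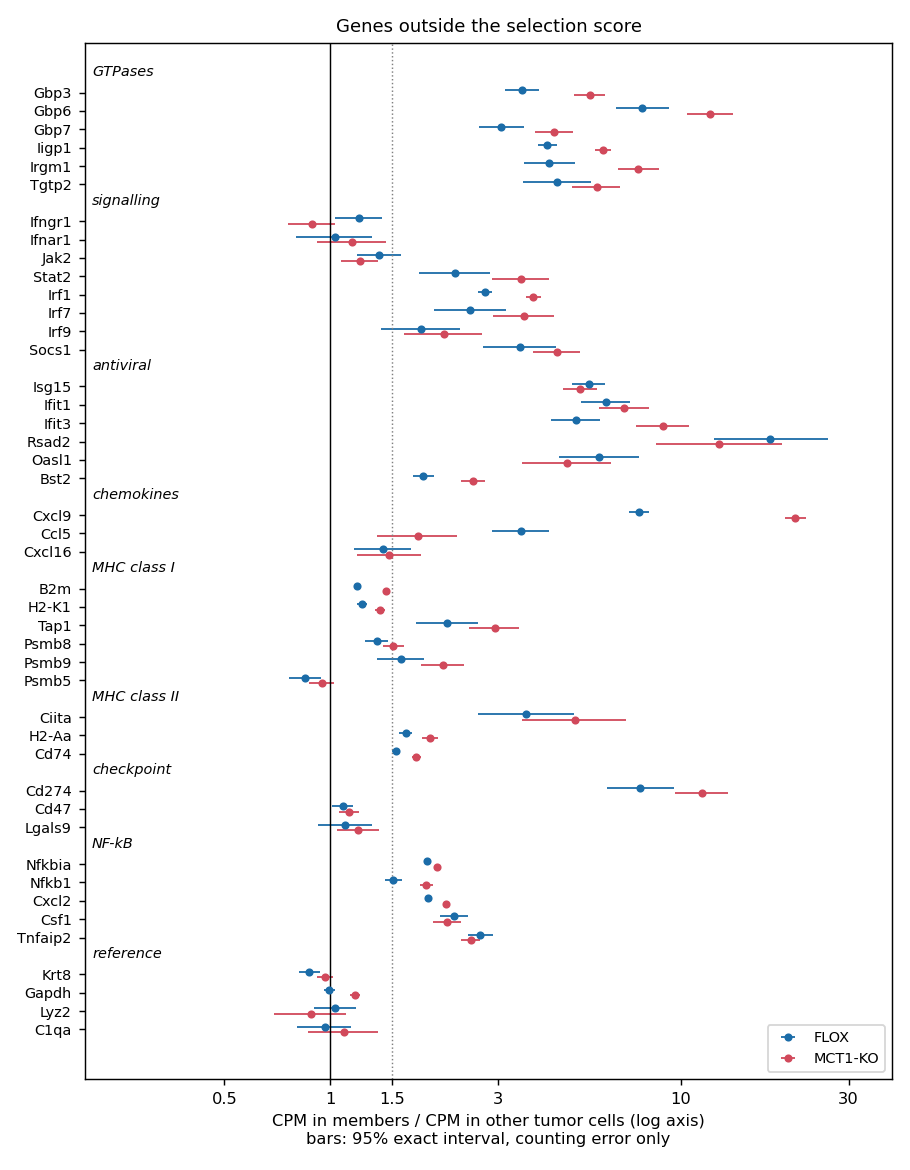
Ratio of members to other tumor cells in CPM (horizontal log axis) for genes of each role, with lines at 1 and 1.5 and with FLOX and MCT1-KO as separate points and bars for the exact 95% interval of counting error. Receptors sit near 1, Irf1 is at 2.76 and 3.79, and Cxcl9, Gbp6 and Cd274 between 7.58 and 21.2.

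In the MHC class I list, 5 of 17 genes were higher, with medians of 1.34 and 1.51, and the count was 2 when Gbp2 was left out of the score and 8 when Cxcl10 was. B2m, the shared light chain, held 4389 against 3675 CPM (1.19-fold) and 3634 against 2517 (1.44-fold), under 1.5-fold in both libraries. Tap1, which pumps peptides into the endoplasmic reticulum, was 2.16-fold and 2.94-fold higher, and Nlrc5, the factor that drives class I genes, 1.77-fold and 1.93-fold. Calr, a chaperone of the same route, had 0.874 and 0.954. Psmb9 and Psmb10, inducible proteasome subunits, were higher at 1.59 and 1.61 in FLOX and 2.09 and 2.03 in MCT1-KO, and the third inducible subunit Psmb8 had 1.36 and 1.52. None of the 14 constitutive proteasome genes passed, with medians of 0.972 and 0.968.

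MHC class II genes were higher in 5 of 7, and in 1 of 7 when Gbp2 was left out of the score. Ciita, the factor that switches the class on, held 29.7 against 8.21 CPM (3.62-fold, 2.64 to 4.95) and 18.9 against 3.79 (4.98-fold, 3.52 to 6.97). H2-Aa, a class II chain, held 1129 against 688 (1.64-fold) and 635 against 330 (1.93-fold), and Cd74, the invariant chain, 3812 against 2474 (1.54-fold) and 1987 against 1129 (1.76-fold). Free RNA held more of the list than the members did, at 9995 CPM against 7475 in FLOX and 4762 against 3995 in MCT1-KO, and its part in these levels was not tested.

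Among 7 measured checkpoint ligands and suppressive enzymes, 1 was higher. Cd274, the gene of PD-L1 (ENSMUSG00000016496, chromosome 19, 29367455 to 29388095), held 85.0 against 11.1 CPM in FLOX (7.65-fold, 6.13 to 9.57) and 97.3 against 8.49 in MCT1-KO (11.5-fold, 9.62 to 13.6). It was detected in 50 of 150 and 63 of 175 members, and in 13.3% and 20% of them after thinning, against 2.29% and 2.19% of other tumor cells. T cells, which can make it themselves, held it in 15.5% and 13.8% after thinning. Cd47, a signal against phagocytosis, had 1.09 and 1.13. Nos2, which makes nitric oxide, was below the UMI minimum, with 29 UMIs in 7 FLOX members and 69 in 15 MCT1-KO members, or 12.1 against 1.61 CPM and 25.04 against 0.653.

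The inhibitors of the pathway were higher in 2 of 5. Socs1, which blocks JAK kinases, held 49.4 against 14.2 CPM (3.47-fold, 2.72 to 4.40) and 86.4 against 19.5 (4.42-fold, 3.79 to 5.15). Usp18, which removes Isg15 and blocks the type I receptor, was 3.26-fold and 6.05-fold higher. Of 14 cell death and inflammasome genes 5 were higher, such as Zbp1, a sensor of nucleic acids, at 1.99 and 3.30, and Il18bp, which binds interleukin 18, at 2.08 and 2.78. With Gbp2 left out of the score 3 of the 14 were higher, Zbp1 no longer among them, and 4 were with Cxcl10 left out.

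NF-kB targets and cytokines were higher in 10 of 20, with medians of 1.79 and 1.80, and in 4 of 20 when Cxcl10 was left out of the score. Nfkbia, the inhibitor that NF-kB induces, held 4191 against 2215 CPM (1.89-fold) and 3140 against 1555 (2.02-fold). Cxcl2, a neutrophil chemokine, held 4405 against 2314 (1.90-fold) and 4761 against 2223 (2.14-fold), and Csf1, a macrophage growth factor, 286 against 126 (2.26-fold) and 197.8 against 91.9 (2.15-fold). Tnf had 0.754 and 0.813. Their values with Cxcl10 left out are given below.

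Other programs had few or no genes past the threshold. None of 20 cell cycle genes was higher or lower (medians 0.958 and 1.08), none of 14 glycolysis and lactate transport genes (1.00 and 1.15), and none of 11 heat shock and immediate-early genes (1.15 and 1.05). Of 9 complement genes none passed, though all 9 had ratios above 1 in FLOX and 6 in MCT1-KO, with medians of 1.32 and 1.21. Of 13 epithelial and mesenchymal genes 1 was lower, Epcam, a surface protein of epithelial cells, whose UMIs in members came from 1 cell per library, 6 in FLOX and 5 in MCT1-KO. Few other tumor cells held Epcam either, 25 of 873 in FLOX and 46 of 2051 in MCT1-KO, so the call rests on those few cells. It was no longer past the threshold with Cxcl10 or Gbp2 left out of the score.

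Outside the lists, the higher genes included serine protease inhibitors. Serpina3f held 39.4 against 3.30 CPM (11.9-fold, 8.18 to 17.7) and 34.5 against 2.94 (11.7-fold, 8.70 to 15.8). Serpina3g held 92.5 against 14.2 (6.49-fold) and 121.9 against 14.3 (8.54-fold). These 2 genes belong to one cluster of near copies, so their split is uncertain. Apol6, an apolipoprotein L gene, was 7.25-fold and 7.54-fold higher. Samhd1, which depletes nucleotides, was 3.41-fold and 4.55-fold higher.

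All 10 acinar enzyme genes were lower, with ratios of 0.0239 to 0.164 in FLOX and 0.374 to 0.594 in MCT1-KO, summing to 40.6 CPM in FLOX members against 850 in other tumor cells and to 743 against 1492 in MCT1-KO. In FLOX, 1 other tumor cell held 6830 of the 10561 UMIs, and without it the other tumor cells stood at 301 CPM. Free RNA held 345 CPM of the acinar list in FLOX and 18302.5 in MCT1-KO, and its part in these levels was not tested. Leaving out each gene's highest other tumor cell, all 10 stayed past the threshold, with ratios of 0.0673 to 0.262 in FLOX and 0.399 to 0.648 in MCT1-KO. With Cxcl10 left out of the score 8 of the 10 were lower, Cela1 and Pnlip no longer, and with Gbp2 left out 9, Clps no longer. The 10 genes with the lowest ratios included the antibody genes Igha (27.2 against 332 CPM in FLOX, 17.1 against 366 in MCT1-KO), Jchain (7.54 against 113, 4.36 against 67.1) and Iglc1 (12.6 against 610.1, 9.07 against 74.6). Single cells among the other tumor cells held many of these UMIs: 1 cell had 7333 of 7579 Iglc1 UMIs in FLOX and 1 had 2163 of 2285 in MCT1-KO. Without them the other tumor cells held 19.8 and 3.99 CPM, so that in MCT1-KO the members were the higher. For Igha 1 cell had 3713 of 4129 and 4378 of 11205 UMIs, and 33.5 and 223 CPM were left. Jchain had 50.2 and 43.9 CPM left without its highest cell. Whether the cells that held many acinar or antibody UMIs are tumor cells was not tested. Ttr and Ambp, secreted carriers, had no UMI in members, which puts them at least 5.26-fold and 3.40-fold lower in FLOX and at least 6.06-fold and 3.54-fold lower in MCT1-KO against a floor of 3 UMIs. Few other tumor cells held them: Ttr 11 in FLOX and 16 in MCT1-KO, and Ambp 13 and 21. For Ttr 1 cell held 81 of the 202 MCT1-KO UMIs, and 3.95 CPM was left without it. Rora had no UMI in FLOX members, at least 3.20-fold lower against that floor, and 2 in MCT1-KO members, a ratio of 0.216 (0.0258 to 0.799). Dmbt1, Fxyd3 and Tstd1, which complete the lowest 10 with Epcam, had ratios of 0.0601, 0.209 and 0.118 in FLOX on 2, 13 and 2 member UMIs, and of 0.269, 0.0799 and 0.0736 in MCT1-KO on 8, 1 and 1. Few other tumor cells held Fxyd3 (27 in FLOX and 24 in MCT1-KO) or Tstd1 (20 and 30). For Dmbt1 1 other tumor cell had 88 of the 173 FLOX UMIs, and 6.85 CPM was left without it. With the cells that held over 1% acinar and islet UMIs left out, which kept 1017 FLOX and 2185 MCT1-KO tumor cells, 104 genes were lower, of which 97 were among the 138, while 160 of the 169 higher genes remained. Under some other choices of members fewer of the 138 recurred, as given below.

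The upstream windows of the higher genes were searched for the same motifs. Of the 169 higher genes 122 had a RefSeq window, and 33 of these (27.0%) held an ISRE match, against 3.31% of the 8161 tested genes with a window and 3.46% of all 27025 genes. A GAS match was found for 15.6% against 6.98% and 8.13%, and a kappaB match for 7.38% against 1.47% and 1.36%. Of the 100 lower genes with a window, 3 held an ISRE match. The 122 higher genes with a window include the 3 genes of the rule, which are higher by construction. All 3 hold an ISRE match, Cxcl10 and Gbp5 also a kappaB match, and Gbp5 also a GAS match. These shares describe letters and were not tested.

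Several genes also followed the score below the threshold. Tumor cells were placed in 6 bins per library: those with no UMI of the 3 genes, the remaining non-members in bins of low, middle and high score, and the members below and above their own median. Irf1 went from 215 CPM in FLOX cells with no UMI through 286, 377 and 594 to 876 and 1325 CPM in the member bins. In MCT1-KO it went from 118 through 141, 239 and 407.5 to 537 and 961. Both libraries showed an increase at each step, with no jump at the threshold. H2-Aa increased through all FLOX bins, from 479 to 1249 CPM, but in MCT1-KO it was lower in the upper member bin, at 582 CPM, than in the lower, at 693.

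Cxcl9 and Cd274 differed in shape from Irf1, with most of their level in the top bin. Cxcl9 held 46.5, 45.4, 92.4, 243 and 367 CPM in the first 5 FLOX bins and 1487 in the last. In MCT1-KO it went from 10.5 to 352 CPM in the first 5 bins and to 1277 in the last. Cd274 held 5.33 to 23.9 CPM in the first 5 FLOX bins and 148 in the last, and 3.90 to 47.5 and then 143 in MCT1-KO. Nfkbia, by contrast, was near its highest level in the lower member bin already, at 4081 and 4305 CPM in the 2 FLOX member bins and 3073 and 3202 in MCT1-KO. Lyz2 stayed between 88.6 and 114.8 CPM in FLOX and between 27.2 and 37.0 in MCT1-KO. The FLOX bin with no UMI was shallower than the rest, with a median of 8950 UMIs against 14246 to 19154.

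**Figure D3:**
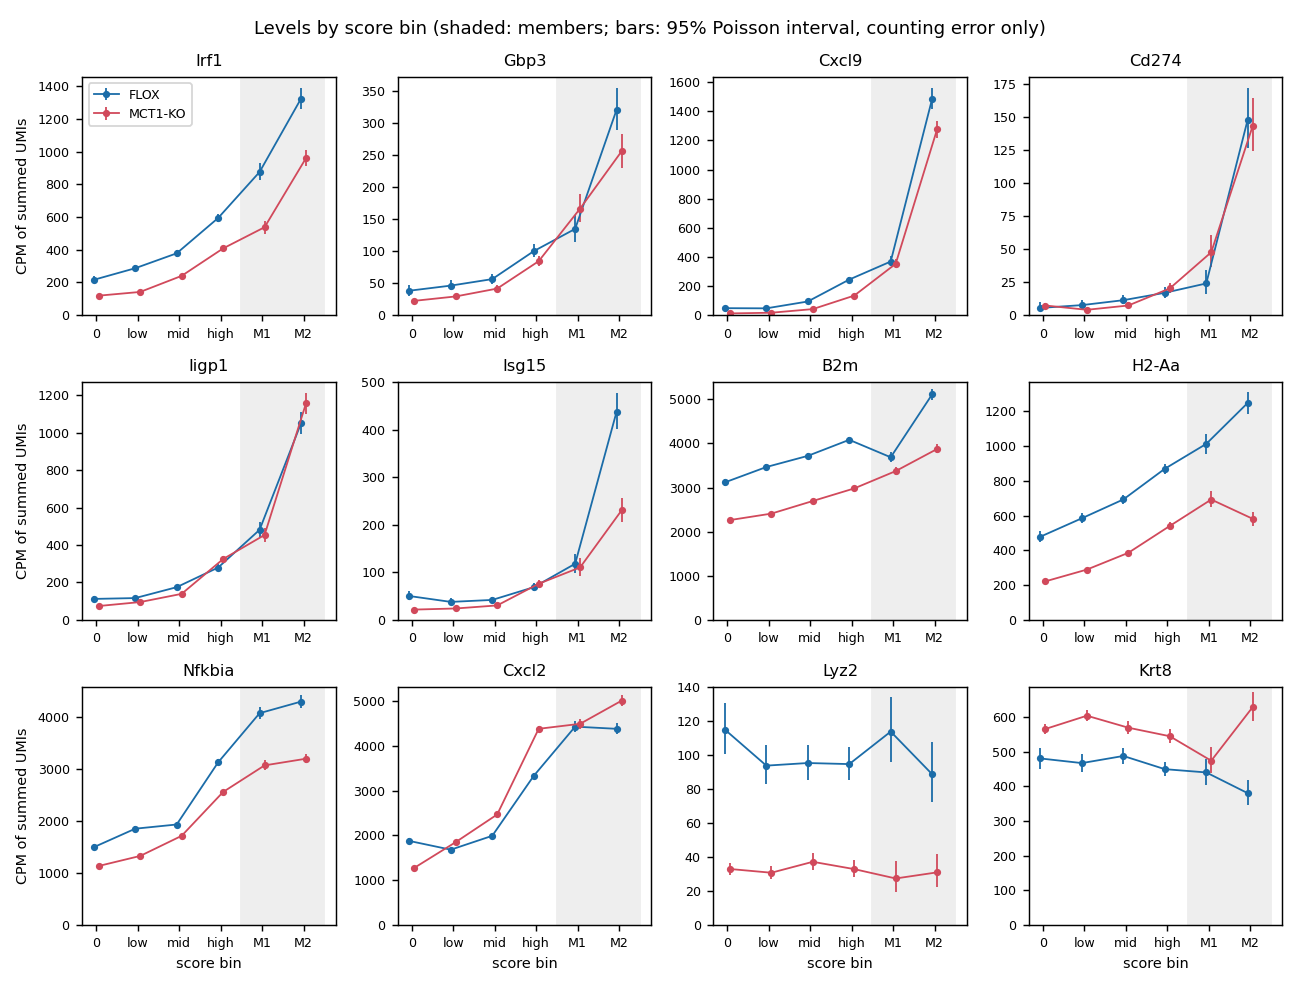
CPM of single genes (vertical linear axes from 0, each with its own range) in 6 bins of tumor cells ordered by score (horizontal axis), with 0 for cells without a UMI of the 3 genes, low, mid and high for the other non-members, and M1 and M2 for members below and above their median score; bars are exact 95% intervals of counting error. Irf1 climbs from bin to bin, from 215 to 1325 CPM in FLOX, while Cd274 sits at or under 47.5 CPM until the last bin, at 148 and 143.

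Members differed among themselves in which gene made their score. Cxcl10 gave more UMIs than Gbp2 and Gbp5 together in 100 FLOX members (66.7%) and 116 MCT1-KO members (66.3%), called Cxcl10-led here. The remaining 50 and 59 were Gbp-led. Median depths were 17247 and 17683 UMIs in FLOX and 16941 and 16434 in MCT1-KO, Cxcl10-led first, and median scores 21.1 and 17.4 in FLOX and 27.5 and 13.7 in MCT1-KO. As the split uses the score's own genes, values in the sets are descriptions.

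The Cxcl10-led members held more RNA of NF-kB targets. The NF-kB list summed to 13341 CPM in Cxcl10-led and 9358 in Gbp-led FLOX members, against 6589 in other tumor cells. In MCT1-KO it summed to 14752 and 5772, against 6013, so that the Gbp-led members there were at the level of the other tumor cells. Of its 20 genes, 8 were at least 1.5-fold higher in the Cxcl10-led members of both libraries and 2 in the Gbp-led, where 3.8% and 2.21% of all 10269 genes were so. Cxcl2 held 4977 against 3217 CPM in FLOX and 6167 against 1759 in MCT1-KO. The 5 neutrophil markers also summed to more in Cxcl10-led members, 94.3 against 65.7 CPM in FLOX (1.43-fold, 1.04 to 2.01) and 128 against 39.8 in MCT1-KO (3.22-fold, 2.26 to 4.74). This rested on 1 Cxcl10-led cell per library, with 61 of 152 and 200 of 241 UMIs, without which the ratios were 0.867 (0.609 to 1.25) and 0.554 (0.344 to 0.896). The antiviral list differed little, summing to 3711 against 3425 CPM and 2741 against 2727, with 5 of 26 genes higher in Cxcl10-led members and 2 in Gbp-led. Among the single genes, Rsad2 had 132 UMIs in Cxcl10-led and 2 in Gbp-led FLOX members, and 51 and 2 in MCT1-KO. Isg15 was 2.71-fold (2.19 to 3.40) and 1.92-fold (1.53 to 2.44) higher in Cxcl10-led members, Irf1 1.59-fold and 2.39-fold, and Socs1 3.89-fold and 2.72-fold.

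The Gbp-led members held more Cxcl9 and Gbp3 RNA, and their MHC class II list summed to 9299 against 6596 CPM in FLOX and to 5893 against 3106 in MCT1-KO, with 2 of its 7 genes at least 1.5-fold higher in both libraries. Cxcl9 stood at 1252 CPM in Gbp-led and 757 in Cxcl10-led FLOX members, and at 1101 and 706 in MCT1-KO. Gbp3 stood at 305 against 187 and 295 against 174, and H2-Aa at 1497 against 952 and 985 against 471. All of these levels were above those of other tumor cells in both sets. Iigp1 was nearly level between the sets, at 807 CPM in Cxcl10-led and 666 in Gbp-led FLOX members and 812 and 834 in MCT1-KO. The macrophage-marker list had median ratios of 0.917 and 1.20 between the sets.

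**Figure D4:**
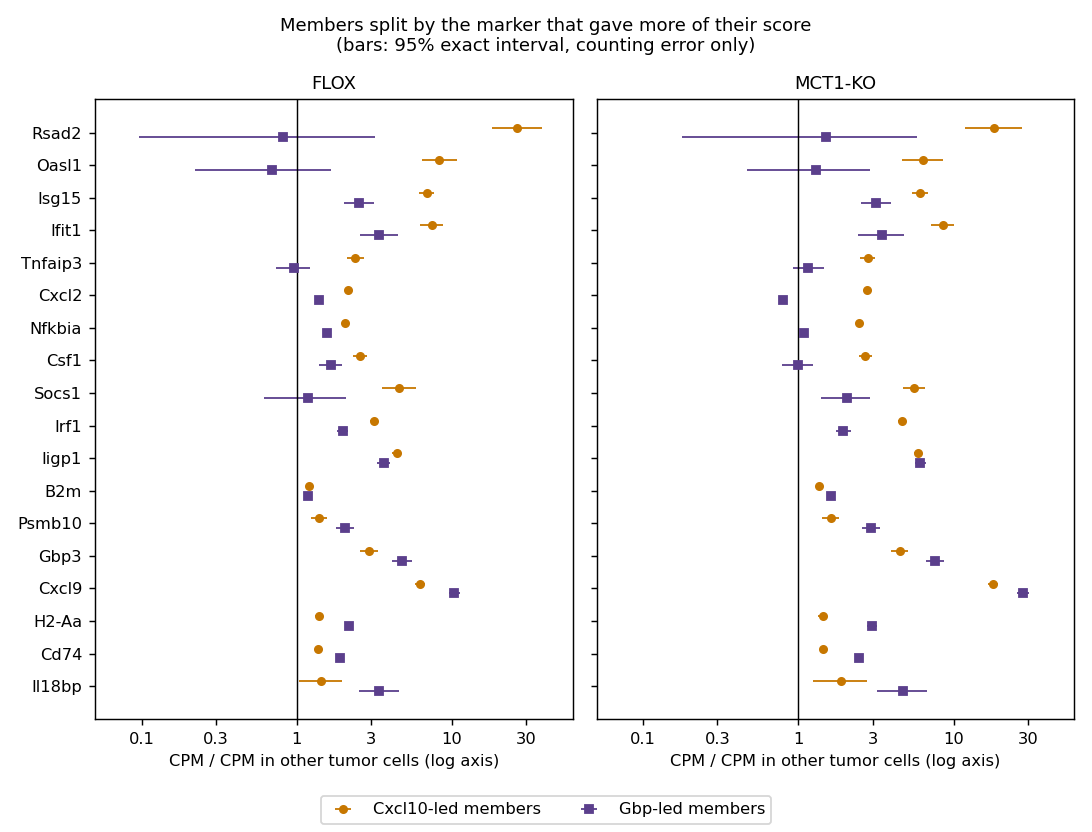
Ratio of Cxcl10-led members and of Gbp-led members to the other tumor cells (horizontal log axes, CPM over CPM) for 18 genes in FLOX (left) and MCT1-KO (right), with exact 95% intervals of counting error. Rsad2, Oasl1 and Isg15 are higher in Cxcl10-led members, Cxcl9, H2-Aa and Gbp3 in Gbp-led members, and Iigp1 and B2m are close in both.

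Leaving one gene out of the score changed what the members held most of. With Cxcl10 left out, the new members still held 6.01 times (5.70 to 6.33) and 10.1 times (9.63 to 10.6) the Cxcl10 of other tumor cells, and Cxcl9 was 9.85-fold and 29.7-fold higher. All 7 MHC class II genes and 22 of 26 antiviral genes were then higher, but Rsad2 had ratios of 5.34 and 3.30, against 17.9 and 12.8 with the full score, and Isg15 2.95 and 3.62, against 5.45 and 5.16. Of the NF-kB targets, Nfkbia was at 1.31 and 1.30, Cxcl2 at 1.18 and 1.24 and Csf1 at 1.498 (1.35 to 1.66) and 1.29 (1.16 to 1.44). With Gbp2 left out, Gbp2 itself was 3.08-fold and 4.63-fold higher, and Cxcl9 5.43-fold and 10.4-fold. Several antigen-presentation genes no longer passed, with H2-Aa at 1.37 and 1.29, Cd74 at 1.34 and 1.27 and Psmb9 at 1.35 and 1.75, and none of the 5 immunoproteasome genes did. With Gbp5 left out, Gbp5 was 10.01-fold and 13.8-fold higher. When members were chosen on a random part of each cell's UMIs and measured on the rest, Cxcl9 was 7.97-fold and 19.0-fold higher, and 146 genes were higher, of which 122 were among the 169. The lower genes recurred less. In that setting 115 were lower, of which 45 were among the 138. With Cxcl10 left out of the score 129 were lower, of which 55 were among the 138. With Gbp2 left out these counts were 113 and 70, and with Gbp5 left out 140 and 109.

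Across single members, the summed UMIs of gene groups per total were compared by Spearman correlation as a description, since the groups share each cell's total and library. Immunity-related GTPases went with the JAK-STAT and IRF factors, with rho of 0.59 in 150 FLOX members and 0.59 in 175 MCT1-KO members. MHC class I went with MHC class II (0.69 and 0.62), and Cxcl9 with the guanylate-binding proteins outside the rule (0.50 and 0.49).

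The libraries were compared within the members last. Of 7953 genes with enough UMIs, 462 (5.81%) were at least 1.5-fold higher in MCT1-KO members and 537 (6.75%) at least 1.5-fold lower, with no replicate behind either count. The sum of the 3 rule genes was 1.03 times as high in MCT1-KO members as in FLOX members, under the threshold common to both libraries, against 0.632 among other tumor cells. Irf1 was lower in MCT1-KO members, at 757 against 1097 CPM (0.690-fold, 0.651 to 0.731), and had a ratio of 0.503 among other tumor cells. Cxcl9 was at 0.907 (0.855 to 0.962) in members and 0.325 in other tumor cells.

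MHC class II summed to 0.534 times the FLOX level in MCT1-KO members, to 0.463 times in other tumor cells and to 0.476 times in free RNA, and 6 of its 7 genes were at least 1.5-fold lower. Antiviral genes were lower in 11 of 24 and higher in none. Their sum was 0.756 times the FLOX level in members, 0.708 in other tumor cells and 0.623 in free RNA. Cd274 had a ratio of 1.14 (0.9499 to 1.38), an interval that includes 1. Socs1 was 1.75-fold higher in MCT1-KO members (1.40 to 2.20) and Ccl5 lower, at 0.305 (0.228 to 0.403). For Ccl5 1 FLOX member held 63 of the 196 UMIs. Without the highest cell of each set it held 56.1 and 19.7 CPM in members, FLOX first, and 21.8 and 10.8 in other tumor cells. Heat shock and immediate-early genes were lower in 9 of 11, and their sum was 0.509 times the FLOX level in members, 0.521 in other tumor cells and 0.541 in free RNA.

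The 5 genes with the largest ratio towards FLOX were Hspa1a, Hsph1, Hspa1b and Dnajb1, chaperones of the heat shock response, and Gm5678. Their MCT1-KO over FLOX ratios in members were 0.0510, 0.0536, 0.0835, 0.177 and 0.181, and in free RNA 0.0797, 0.0837, 0.126, 0.219 and 0.313, so the same direction held outside cells. Towards MCT1-KO the 5 largest were Ighg2b, an antibody chain, the pancreatic enzyme genes 2210010C04Rik, Cpa1 and Pnlip, and the antibody segment Igkv3-4. A single cell held 5870 of the 5890 Ighg2b UMIs and 73 of the 76 Igkv3-4 UMIs of MCT1-KO members. The enzyme genes had 186, 102 and 108 UMIs in MCT1-KO members against 3, 2 and 1 in FLOX members, ratios of 53.7 (18.1 to 263), 44.2 (11.9 to 370) and 93.6 (16.4 to 3731), and were 94.97-fold, 61.7-fold and 98.6-fold higher in free RNA.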

How the data were processed

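The authors trimmed reads with Fastp and made the matrices with SeekOneTools, and the deposited values are raw UMI counts per gene and barcode, not normalized. The labels name Seurat 4.0.0 and the human build GRCh38, while the identifiers are mouse Ensembl genes, so positions were taken by identifier from GENCODE vM21 on GRCm38. The kit is given as SeekOne MM in the labels and as another in the study's methods. Members and gene lists were chosen with earlier results of these data known.

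Libraries were grouped by their genotype labels. Cells were selected by the stated limits, and UMIs were summed per gene, library and cell set with scipy 1.17.1 and pandas 2.3.3 under python 3.11.15 (numpy 2.4.6), with scikit-learn 1.9.0 for the doublet score and matplotlib 3.10.9 for figures. CPM is relative to the summed UMIs of the set, which were 2388248 and 2755535 in members and 12422063 and 30619008 in other tumor cells, FLOX first. Intervals are exact at 95%, Poisson for a level, conditional binomial for a ratio and Clopper-Pearson for a share. With 1 library per condition no test was made. Cells differ more than counting error, so the intervals are too narrow for a difference between cells. Reads without replicate animals give no biological error. Doublets were not removed in the values given, and an alternative left out the 8% of cells with the highest doublet score per library. Macrophage reference cells, 1055 and 1099, held at least 0.5% Lyz2 and C1q UMIs. T cell reference cells numbered 161 and 94, and fibroblast cells 104 and 204.

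Genes named with values were those of the rule and the lists, the 15 with the largest and the 10 with the smallest ratio by the library in which the change was smaller, and the 5 most different between libraries in each direction. A few further genes and the genes carried by single cells were chosen after their values were seen. On simulated counts of 10269 genes with 200 changed, the intervals held the true ratio in 95.7% of genes, and 0.338% of unchanged genes passed 1.5-fold in both libraries. Of the simulated 2-fold increases 98.4% passed, and of the 2-fold decreases 88.2%. The simulated counts were Poisson draws without spread between cells and without the choice of members. These figures therefore say nothing of errors from either. In the minus-strand check 198 of 267 windows matched transcripts on the stated strand. Alternatives varied the cell limits, the threshold, the score, the UMI minimum and the scaling. Results for some items are not reported here.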

Additional observations from a re-analysis of the deposited data

Results flagged for a closer look

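Some genes and lists lay above the other tumor cells in members of one library and below them in the other, and none of these differences was tested. The ratios of members to other tumor cells, FLOX first, were 0.937 and 1.14 for Aldoa, a glycolytic enzyme, 0.563 and 1.71 for Birc3, an NF-kB target that inhibits cell death, 0.768 and 1.51 for the cytokine Il6, and 0.815 and 1.48 for the keratin gene Krt19. Heat shock genes went the other way, with 1.15 and 0.928 for Hsp90aa1, 1.20 and 0.671 for Hspa1b, and 1.18 and 0.612 for Hsph1. The neutrophil genes S100a8 and S100a9 had 0.575 and 1.39, and 0.763 and 1.68, and the whole neutrophil marker list summed to 0.666 and 1.58, the latter 0.437 without 1 cell. In MCT1-KO members 1 cell held 89 of the 128 S100a8 UMIs and 1 cell 75 of the 106 S100a9 UMIs, and without the highest cell the ratios there were 0.427 and 0.495. The 5 islet hormone genes had summed ratios of 13.0 (2.13 to 136.6), on 5 UMIs in members and 2 in other tumor cells, and 0.0533 (0.0275 to 0.0932), on 12 and 2504.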

How the results depend on the processing

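With 1 library per condition no replicate could be left out, and counting error is the only error these data give. No paired analysis was possible because the groups share fewer than 2 replicate numbers. Of 22 alternatives 20 were planned. Leaving out cells with over 1% immunoglobulin UMIs, which left 168 genes higher, and leaving out each gene's highest cell were added after seeing the data. The member share in FLOX and MCT1-KO was 7.23% and 3.95% for the top 5% of tumor cells, 28.3% and 16.2% for the top 20%, 9.97% and 10.02% with the threshold set per library, as that rule fixes, and 8.57% and 10.1% among tumor cells with no UMI of 10 immune genes, where the order of the libraries turned. That last setting left 35 FLOX and 414 MCT1-KO tumor cells, with 3 and 42 members and 548 genes tested, of which 5 were higher and 3 lower, and 278 were lower in MCT1-KO members than in FLOX members. With its 3 FLOX members the FLOX ratio turned for 9 genes counted as higher, of the 28 followed. It fell to 0.793 for H2-Aa, 0.494 for Nfkb1 and 0 for Cd274, Rsad2, Serpina3g, Psmb9, Ciita, Socs1 and Gbp5. Krt8 and Ifngr1, counted as neither higher nor lower, also changed direction in FLOX, from 0.874 to 1.74 and from 1.21 to 0. Nos2 in FLOX and Lyz2 in both libraries gave no value there, and Lyz2 gave none in MCT1-KO with free RNA subtracted. Under the other alternatives no called direction turned among these genes, and 117 to 231 genes were higher. Genes lower numbered 240 for the top 5%, 61 for the top 20%, 311 at a minimum of 20 UMIs per library and 25 at 200, against 138. Between the libraries, 787 genes were higher and 968 lower in MCT1-KO members at 20 UMIs, and 119 and 144 at 200, where fewer genes are tested. Subtracting free RNA scaled on acinar genes could be computed in MCT1-KO alone, since the other tumor cells of FLOX held more acinar RNA than the free RNA did.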

Other observations

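The only FLOX member with Ifnb1 UMIs was a cell of 18833 UMIs with a score of 91.3 per 10000, chosen for description after its values were seen. It held all 6 Ifnb1 UMIs of the members, 160 Cxcl10 UMIs, 68 of the 657 Isg15 UMIs, 54 of the 342 Ifit1 UMIs and 36 of the 129 Oasl1 UMIs. It held no Cxcl9 or Rsad2 UMI and 2 of Gbp2. Its identity markers were 3 Krt8 and 9 Krt18 UMIs beside 7 of Lyz2 and 1 of C1qa, and macrophage reference cells held Ifnb1 at 9.07 CPM in FLOX and 13.8 in MCT1-KO, so whether the barcode holds 1 cell was not tested.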
